A study of Mus musculus with 6 samples.

Results

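The genes described here build and run the lysosome: its membrane proteins and soluble enzymes, the pump that acidifies it, the transcription factors known to switch its genes on, and the autophagy genes that deliver cargo to it. The 34 genes were listed by name, and a gene was read from the row of the value table annotated with its symbol alone, or from the row with the highest mean where it had several. Such a row was found for 32 of the 34, out of 22180 genes with a row of 1 symbol, and the proton pump subunit Atp6v0c and the autophagy receptor Optn are not analysed here. The data are from 6 Affymetrix gene arrays, each with RNA of BV-2, a mouse microglial line immortalised with a retrovirus carrying raf and myc oncogenes. On 3 arrays the cells were labelled control, and on 3 they had received lipopolysaccharide (LPS) of Escherichia coli O111:B4 at 1 µg/mL for 24 h. Cells of both groups were plated in medium with 2.5% serum and without phenol red. When the controls were collected, and whether the replicates are separate cultures, is not given in the sources used here. P-values therefore speak only of the spread among these 6 arrays, and that spread may be technical.

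Lysosomes are acidic vesicles in which macrophages and microglia break down engulfed material and their own worn components. The vacuolar proton pump acidifies them, and hydrolases made in the secretory pathway are delivered to them and work at that low pH. TFEB, TFE3 and MITF, of the MiT/TFE family, are known to bind a short DNA element with the core CACGTG in promoters of lysosomal and autophagy genes when they enter the nucleus. Autophagy wraps cytoplasmic cargo in a double membrane studded with lipid-linked ATG8 proteins, and receptors such as p62 (Sqstm1) tie the cargo to these.

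Promoter windows from 250 bases before to 50 after the transcription start were available in RefSeq (GRCm38.p6) for 30 of the 34 genes. The letters CACGTG, which read the same on both strands, occurred in the windows of 7 of these 30 (23.3%): Lamp1, Mcoln1, Atg5, Atg7, Atp6v0d1, Atp6v1a and Gaa. Among all 27025 genes with a window the share was 8.09%. The longer TCACGTGA, which contains the core and is also its own reverse complement, was found in the windows of 3 of 30, Mcoln1, Atp6v0d1 and Atp6v1a, against 1.12% of all genes. The palindromic CLEAR element in full, which contains both, was found in 0 of 30 and in 0.37% of all genes. The letters TGACNNNGC (on either strand), the core of the antioxidant response element bound by NRF2, were in 7 of 30 windows and in 14.0% of all. The window of Sqstm1 held neither CACGTG nor TGACNNNGC. The windows of the genes with more than 1 core match, and of the 2 pump subunits with the longer form, are shown because they carry the element known from MiT/TFE targets. Capitals mark the core, and each line reads 5′ to 3′ on the strand of the gene. The Lamp1 stretch is chr8:13159091-13159160 (plus strand), that of Mcoln1 chr8:3500439-3500498 (plus strand), that of Atp6v0d1 chr8:105566050-105566079 (minus strand, across the start) and that of Atp6v1a chr16:44139373-44139402 (minus strand).
Lamp1: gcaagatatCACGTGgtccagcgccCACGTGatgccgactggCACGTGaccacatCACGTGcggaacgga
Mcoln1: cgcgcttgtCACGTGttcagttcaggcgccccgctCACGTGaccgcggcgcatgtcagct
Atp6v0d1: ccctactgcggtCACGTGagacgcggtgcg
Atp6v1a: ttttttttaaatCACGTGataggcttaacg
Lamp1 had 4 matches, beginning 61, 45, 28 and 15 bases before the start, and Mcoln1 had 2, at 71 and 45 bases. In Atg5 the match began 14 bases before the start, in Atg7 132, in Atp6v1a 131, in Gaa 140 and in Atp6v0d1 3. A match is a description of the letters, and no binding was measured.

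**Figure D1:**
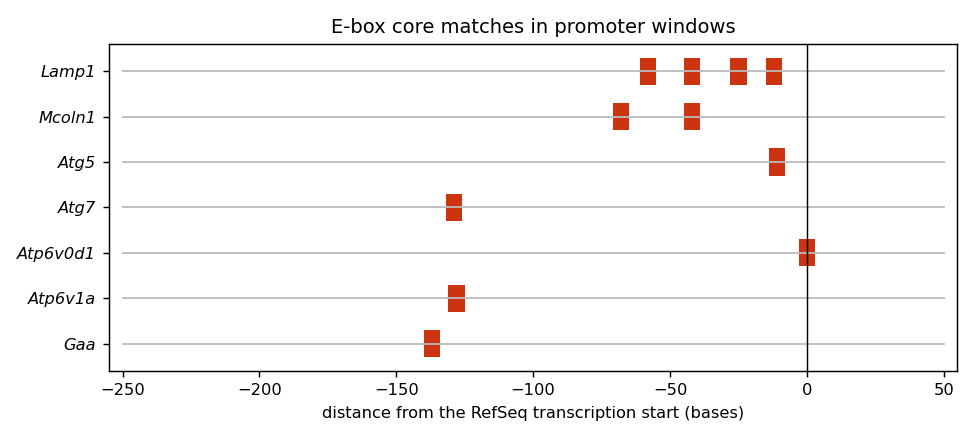
Positions of the CACGTG letters (red boxes, drawn to scale) in the RefSeq promoter windows of the 7 genes that hold them; the x axis is the distance from the transcription start in bases, and grey lines are the windows. Lamp1 has 4 matches within 61 bases of the start and Mcoln1 has 2, and the other genes have 1 each.

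As a check of the label, all 10 macrophage and microglia markers (Csf1r, Itgam, Aif1, Cd68, Adgre1, Ptprc, Spi1, Fcgr3, Tyrobp and Cx3cr1) had mean log2 values above 3.09. That is the 95th percentile of the mean values of 1438 rows of chemosensory receptors (olfactory, vomeronasal and taste), used here as a guide to background. Aif1 and Cx3cr1 were only a little above it, with control means of 3.91 and 3.75 and LPS means of 4.03 and 3.64. The next lowest marker was Spi1, with a mean of 7.33 in both groups. The summed log2 value of the 10 markers lay between 77.3 and 81.2 on the control arrays and between 77.8 and 82.9 on the LPS arrays. Of 23 markers of neurons, astrocytes, oligodendrocytes, lymphocytes and fibroblasts, 2 had means above the background guide, and no value of any of the 23 was above 3.64. Cx3cr1, at 3.53 in LPS replicate 1, was within the range of these other markers, so it does not set the cells apart from them. Array medians of log2 expression were between 2.88 and 2.97, and upper quartiles between 4.85 and 5.27. Control replicate 2 stood apart from the other controls: among the 10885 genes above the background guide it differed from the mean of control replicates 1 and 3 by a median of -0.36. Values below therefore name this array, and LPS replicate 3 is shown apart from LPS replicates 1 and 2. All values are log2 expression, a ± after a group mean is the standard deviation (SD) over its 3 arrays, the error of a difference is limma's moderated standard error (SE), and a gene was called at a Benjamini-Hochberg adjusted p under 0.05 over all 41345 rows.

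In the comparison of LPS with control, 0 of the 32 genes were called in either direction, while the shares of all rows called were 0.193% higher and 0.0% lower, or 0.579% and 0.0% of the 10885 genes above background. At an unadjusted limma p under 0.05, Sqstm1 and Neu1 were higher and Arsb was lower. These are 2 of 32 and 1 of 32 (6.25% and 3.12%), against 4.98% and 1.4% of all rows and 10.1% and 1.43% of genes above background, so the counts were near the background. The LPS arrays lay wholly above the controls for 3 genes, Sqstm1, Neu1 and Atp6v1h, and wholly below for Arsb, against 7.74% and 3.48% of all rows and 14.2% and 1.91% of genes above background. The median log2 fold change of the 32 was 0.12, with 23 on the positive side, the same median as the 0.12 over the 10885 genes above background. After quantile normalization these medians were 0.01 and -0.02. Without LPS replicate 3 the median of the 32 was 0.01, with 16 on the positive side. The genes above background then had a median of 0.09, with 61.4% on the positive side. Without control replicate 2 the median of the 32 was 0.07 and that of the genes above background 0.00. Values given below without control replicate 2 are to be read beside that shift of all genes.

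**Figure D2:**
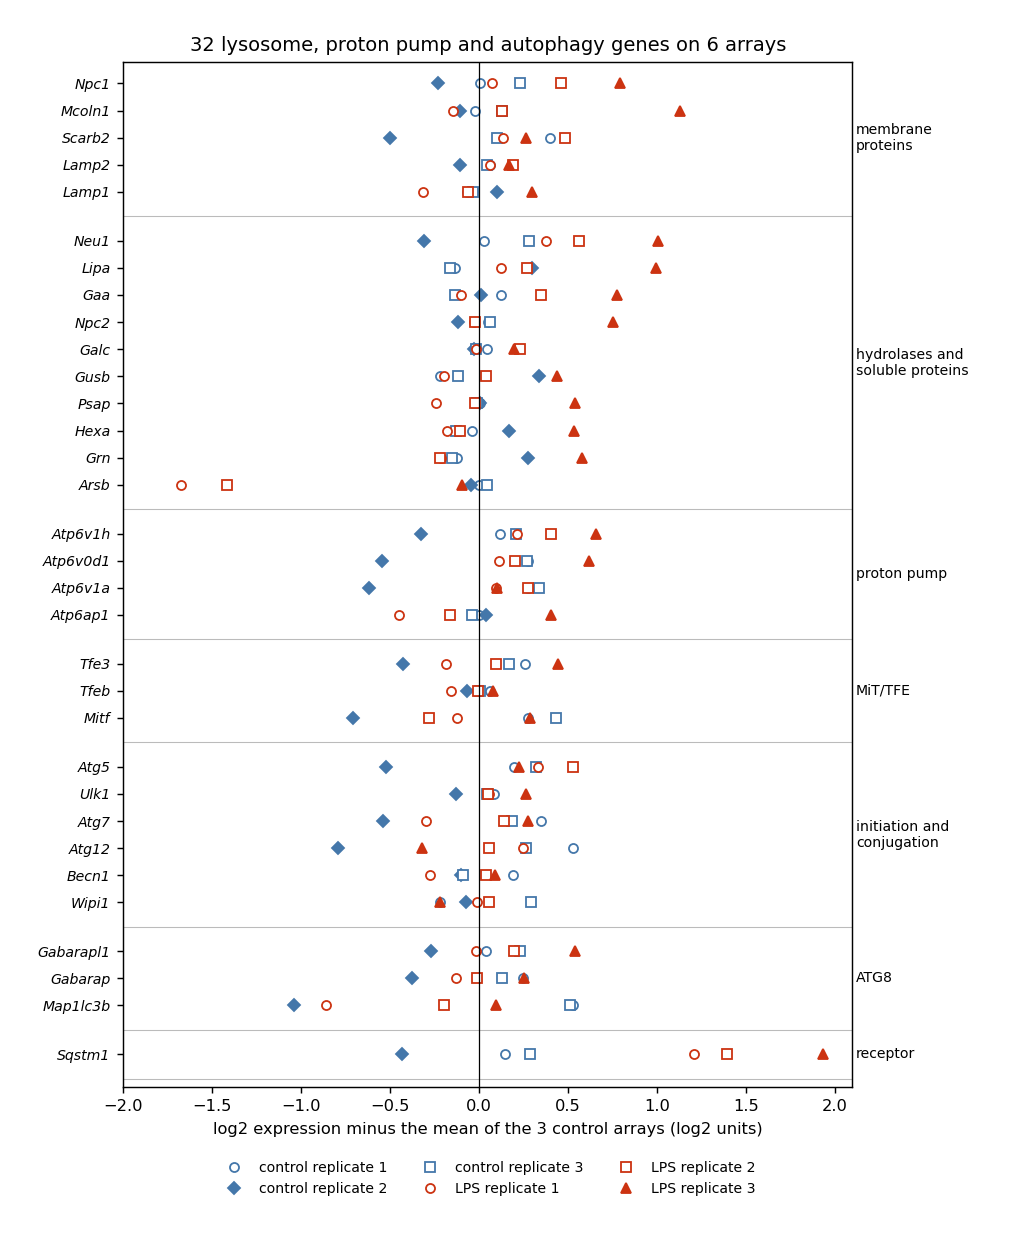
Log2 expression of the 32 genes on each array minus the mean of the 3 controls (x axis, log2 units), grouped by role and ordered by fold change within a role. Blue symbols are controls (filled diamonds, control replicate 2) and red symbols LPS arrays (filled triangles, LPS replicate 3). Sqstm1 has all LPS arrays to the right of all controls, Arsb has LPS replicates 1 and 2 far to the left, and filled triangles lie right of the open red symbols for most lysosomal genes.

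The cargo receptor p62, encoded by Sqstm1, binds ubiquitylated cargo and ATG8 proteins and is itself a target gene of NRF2. Its log2 values were 9.08, 8.50 and 9.23 in control replicates 1 to 3 and 10.14, 10.33 and 10.87 in LPS replicates 1 to 3. RNA came from whole cultures, so more cells using a gene and more RNA per cell cannot be told apart. The lowest LPS value of Sqstm1 lay above the highest control value, and LPS replicate 3 was the highest of all. Sqstm1 had a log2 fold change of 1.51 (SE 0.27; by limma, adjusted p = 0.18), or 2.85-fold, from a mean of 8.94 ± 0.38 to 10.45 ± 0.38 (SD, n = 3). It was the largest difference among the 32 genes. The difference was between 1.29 and 1.66 with any 1 array left out, and 1.08 without both control replicate 2 and LPS replicate 3 (adjusted p = 0.094). It did not pass in any of the 16 other fits, whose adjusted p ran from 0.067 to 0.58.

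Among the 10 lysosomal hydrolases and other soluble lysosomal proteins, 0 were called, 9 had a log2 fold change above 0, and the median was 0.12. Without LPS replicate 3, 4 of the 10 were above 0 and the median was -0.05, and after quantile normalization 6 were above 0 and the median was 0.02. The sialidase Neu1, which trims sialic acids from glycoproteins and glycolipids, was at 6.60, 6.26 and 6.85 in the controls and 6.95, 7.13 and 7.58 after LPS. The groups did not overlap, by a small margin between control replicate 3 and LPS replicate 1. Neu1 had a log2 fold change of 0.65 (SE 0.23; by limma, adjusted p = 0.66), with a 95% interval of 0.10 to 1.19. This was 0.31 without both control replicate 2 and LPS replicate 3.

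Arsb encodes arylsulfatase B, which removes sulfate groups from dermatan and chondroitin sulfate. Its control values were 8.57, 8.52 and 8.61, and its LPS values were 6.89, 7.15 and 8.47. LPS replicates 1 and 2 were well below every control, whereas LPS replicate 3 was close to them. Over all arrays Arsb had a log2 fold change of -1.06 (SE 0.40; by limma, adjusted p = 0.70), or 2.09-fold lower. Without LPS replicate 3 it was -1.55 (adjusted p = 0.048), or 2.92-fold lower, and passed the threshold that 0.0145% of all rows passed in that direction in that fit. It was -1.57 (by limma, adjusted p = 0.039) with control replicate 2 left out as well, in a fit that called 67 rows lower. LPS replicate 3 is the array that narrows the difference, so both calls depend on leaving it out. A second row annotated as Arsb had 4.93, 4.92 and 4.78 in the controls and 3.52, 3.39 and 4.17 after LPS, a log2 fold change of -1.18 (adjusted p = 0.22), and LPS replicate 3 lay between the other LPS arrays and the controls, below every control.

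The remaining 8 soluble proteins had log2 fold changes between 0.05 for Grn and 0.46 for Lipa, with adjusted p from 0.93 to 1.00. Without LPS replicate 3, those of Grn (-0.22), Hexa (-0.14), Psap (-0.13), Gusb (-0.08) and Npc2 (-0.03) were below 0, and those of Lipa and Gaa were 0.20 and 0.13. Lipa, the acid lipase that frees cholesterol and fatty acids from lipoproteins, was at 9.60, 10.03 and 9.57 in the controls and 9.86, 10.00 and 10.72 after LPS. Grn codes for progranulin, a secreted and lysosomal protein that is cleaved into granulins, and was at 10.31, 10.72 and 10.28 against 10.22, 10.22 and 11.02. In both genes the highest control was replicate 2 and the highest LPS array was replicate 3, and the groups overlapped. The log2 fold changes were 0.34 for Gaa (acid alpha-glucosidase, which degrades glycogen), 0.23 for Npc2 (a soluble cholesterol carrier) and 0.14 for Galc (galactosylceramidase). They were 0.09 for Psap (the precursor of the saposins), 0.09 for Gusb (beta-glucuronidase) and 0.08 for Hexa (a subunit of beta-hexosaminidase). Psap had controls within 10.40 and 10.42 and LPS replicates at 10.17, 10.39 and 10.95, so the LPS arrays lay on both sides of a narrow control range.

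Of 5 lysosomal membrane proteins, 0 were called and the median log2 fold change was 0.29, or 0.09 without control replicate 2 and 0.13 without LPS replicate 3. Npc1, which exports cholesterol from the lysosome, had the largest positive difference of these, with 7.57, 7.33 and 7.79 in the controls and 7.64, 8.03 and 8.36 after LPS. The groups overlapped through LPS replicate 1, and Npc1 had a log2 fold change of 0.44 (SE 0.22; by limma, adjusted p = 0.88), or 0.27 without LPS replicate 3. Mcoln1, the calcium-permeable channel whose promoter stretch is printed above, was at 6.80, 6.71 and 6.95 in the controls and 6.67, 6.95 and 7.95 after LPS. LPS replicates 1 and 2 of Mcoln1 lay at the lower and upper ends of the control range, and LPS replicate 3 was 1.13 above the control mean. Its log2 fold change of 0.37 was -0.01 without LPS replicate 3. Lamp1, the abundant membrane glycoprotein with 4 core matches, was at 9.60, 9.77 and 9.63 against 9.35, 9.61 and 9.96, a log2 fold change of -0.02 (95% interval -0.47 to 0.42). Lamp2, its relative that also serves chaperone-mediated autophagy, had 0.14, and Scarb2, the receptor that carries beta-glucocerebrosidase to lysosomes, had 0.29, or 0.04 without control replicate 2.

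The proton pump has a membrane sector that carries protons and a peripheral sector that hydrolyses ATP. Of its 4 genes with a row, 0 were called, and the median log2 fold change was 0.23, or -0.00 without control replicate 2 and 0.07 after quantile normalization. Atp6v1h, a regulatory subunit of the peripheral sector, was at 7.39, 6.94 and 7.48 in the controls and 7.48, 7.67 and 7.93 after LPS. The groups did not overlap, but LPS replicate 1 lay only just above control replicate 3. Atp6v1h had a log2 fold change of 0.43 (SE 0.20; by limma, adjusted p = 0.85), which was 0.26 without control replicate 2. Atp6ap1, an accessory subunit, had controls at 8.74, 8.78 and 8.69 and LPS values of 8.29, 8.57 and 9.14, a log2 fold change of -0.07 (95% interval -0.61 to 0.48). LPS replicates 1 and 2 were below all controls and LPS replicate 3 above them. Atp6v0d1, of the membrane sector, had 0.31 and the catalytic subunit Atp6v1a had 0.16, and without control replicate 2 these were 0.04 and -0.15.

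Of the 3 MiT/TFE transcription factors that act on these genes 0 were called, and in each the groups overlapped. Tfeb was near the background guide on every array, between 3.00 and 3.24, with a log2 fold change of -0.03. Tfe3 was at 6.10, 5.42 and 6.01 in the controls and 5.66, 5.94 and 6.29 after LPS, a log2 fold change of 0.12 (95% interval -0.47 to 0.71), or -0.05 after quantile normalization. Mitf was at 6.74, 5.76 and 6.90 against 6.34, 6.19 and 6.75, a log2 fold change of -0.04 (95% interval -0.82 to 0.74). In both genes control replicate 2 was the lowest array, and without it the log2 fold changes were -0.09 and -0.39. These values are transcript levels, and the location of the proteins in the cell, through which the family is known to be controlled, was not measured.

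Of the 6 genes of autophagy initiation and ATG8 conjugation, 0 were called, 3 had log2 fold changes above 0 and 3 below, and the median was 0.02. Atg5, which is joined to Atg12 to form the enzyme that lipidates ATG8 proteins, was at 6.65, 5.93 and 6.77 in the controls and 6.78, 6.98 and 6.67 after LPS. Its log2 fold change of 0.36 (SE 0.25; by limma, adjusted p = 0.97) was 0.10 without control replicate 2. Wipi1, which reads phosphoinositides on the forming membrane, was at 3.48, 3.63 and 3.99 against 3.69, 3.76 and 3.49, a log2 fold change of -0.06. The groups overlapped fully in Wipi1. The initiating kinase Ulk1 had 0.12, the lipid kinase subunit Becn1 -0.05, the activating enzyme Atg7 0.04 and Atg12 -0.01, all with adjusted p of 1.00. Without control replicate 2 these were 0.06 for Ulk1, -0.10 for Becn1, -0.23 for Atg7 and -0.40 for Atg12. The median of the 6 genes was then -0.10, and that of the genes above background fell from 0.12 to 0.00.

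The 3 ATG8 genes were likewise not called, with a median log2 fold change of 0.04, or -0.15 without control replicate 2. Map1lc3b, the source of the widely used autophagy marker LC3B, was at 8.94, 7.37 and 8.92 in the controls and 7.55, 8.21 and 8.51 after LPS. Control replicate 2 was the lowest of all 6 arrays, while control replicates 1 and 3 were above every LPS array. The log2 fold change of Map1lc3b was -0.32 (SE 0.47; by limma, adjusted p = 1.00), with a 95% interval of -1.44 to 0.80, and -0.84 without control replicate 2. Gabarapl1 was at 6.44, 6.13 and 6.63 against 6.38, 6.60 and 6.94, a log2 fold change of 0.24, or 0.09 without LPS replicate 3 and 0.11 without control replicate 2. Gabarap had 0.04 on its brighter row and -0.30 on its second row. Npc1 was the third gene with a second row, which lay below the background guide on all arrays.

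**Figure D3:**
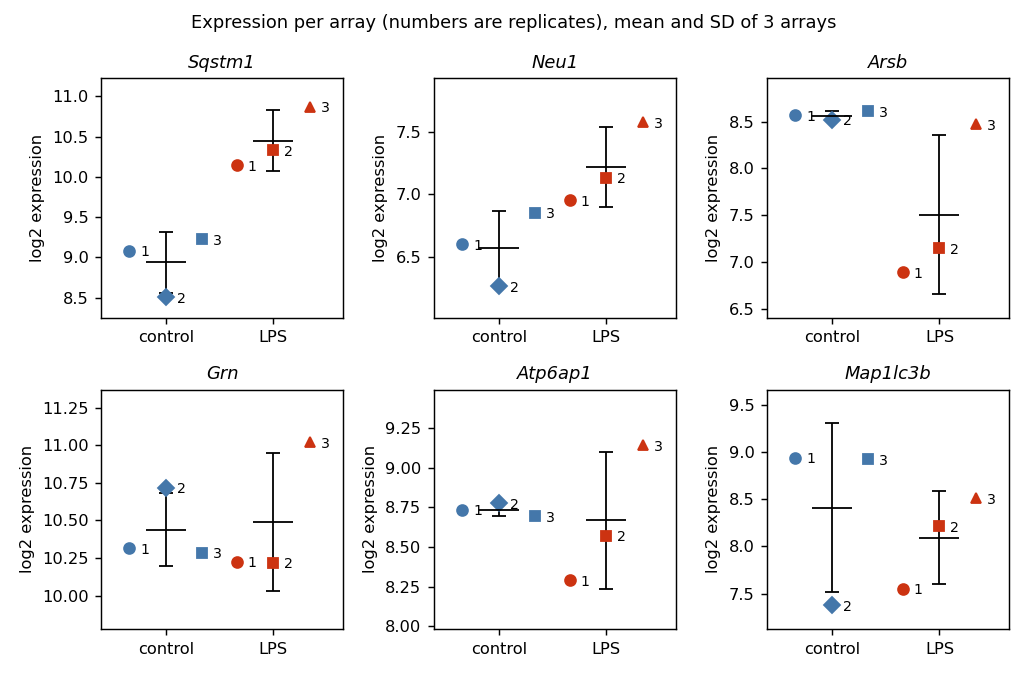
Log2 expression (y axis, a scale of its own in each panel) of 6 genes in the control and LPS groups; each symbol is 1 array with its replicate number, and black bars are the mean and SD of 3 arrays. Sqstm1 and Neu1 have LPS arrays wholly above the controls, Arsb has LPS replicate 3 at 8.47 near the controls, and in Grn and Atp6ap1 LPS replicate 3 is the highest array. In Map1lc3b control replicate 2, at 7.37, is the lowest array.

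Set against the mean of LPS replicates 1 and 2, LPS replicate 3 was higher for 27 of the 32 genes, by a median of 0.49. Over the 10885 genes above background it was higher for 57.2%, by a median of 0.08. After quantile normalization it was higher for 24 of the 32, by a median of 0.36, and for 40.6% of the genes above background, whose median was -0.10. This is 1 array, so the difference has no replicate check and no test is given. All 10 soluble lysosomal proteins were higher in it, by 0.09 for Galc to 1.45 for Arsb with a median of 0.67, and 9 of 10 were higher after quantile normalization, with a median of 0.58. The membrane proteins had a median of 0.48, and Mcoln1 the largest difference of these, 1.14. The proton pump genes had a median of 0.41, the MiT/TFE factors 0.49 and the ATG8 genes 0.45. The 6 genes of initiation and conjugation were evenly divided, 3 higher and 3 lower, with a median of -0.00 and the lowest value, -0.47, in Atg12.

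Wider lists of the same pathways, without the 32 genes, were read in the same way. LPS replicate 3 was above the mean of the other LPS arrays for 34 of 37 other lysosomal genes, by a median of 0.64, and for 33 of them after quantile normalization. For 38 other autophagy genes it was higher for 22, by a median of 0.07, and for 11 after quantile normalization. Among 19 other proton pump genes 14 were higher (median 0.20) and among 21 genes of nutrient sensing and TFEB control 15 (median 0.20). Relative to the control mean, the 32 genes had a median of 0.01 in LPS replicates 1 and 2 and 0.35 in LPS replicate 3. Over the 10885 genes above background these medians were 0.09 and 0.17. After quantile normalization the median in LPS replicate 3 was 0.15 for the 32 genes and -0.09 for the genes above background. Before it, the 10 soluble proteins had medians of -0.05 in LPS replicates 1 and 2 and 0.56 in LPS replicate 3. For the 37 other lysosomal genes they were -0.21 and 0.35. The summed log2 level of the macrophage markers was highest on LPS replicate 3, at 82.9 against 77.8 and 79.7 in LPS replicates 1 and 2, and its part in the result was not tested. Cd68, 0.72 higher on LPS replicate 3 than the mean of the other LPS arrays, belongs both to these markers and to the 37 other lysosomal genes.

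**Figure D4:**
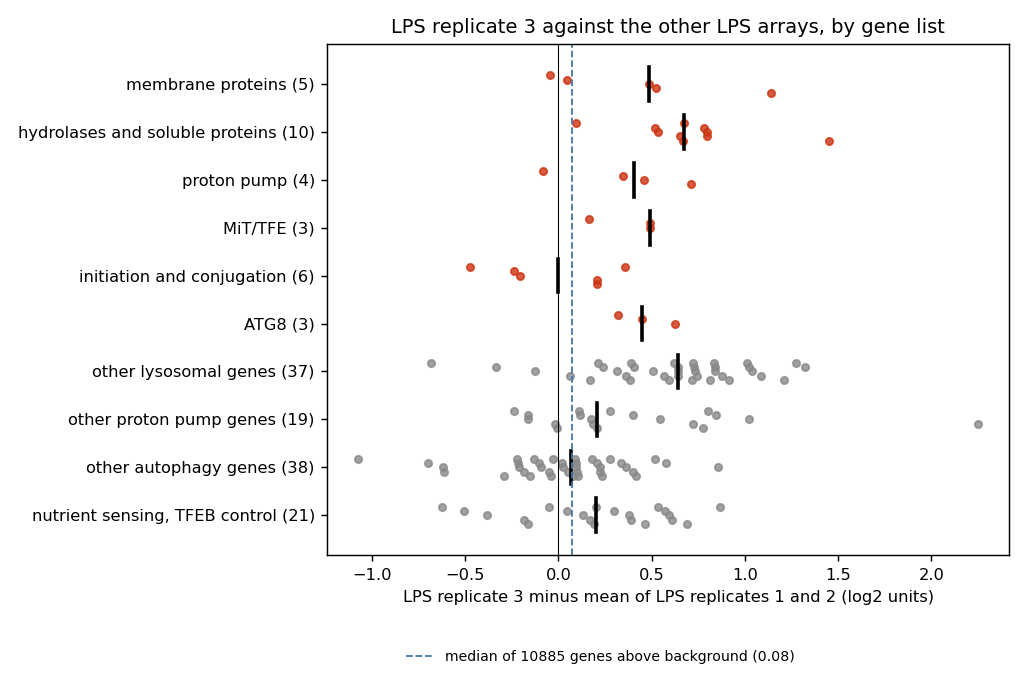
Difference between LPS replicate 3 and the mean of LPS replicates 1 and 2 (x axis, log2 units) for each gene, by list. Numbers of genes are in brackets. Red lists hold the genes described here except Sqstm1, which is not drawn, and grey lists hold other genes of the same pathways. Black bars are list medians and the dashed line is the median of 10885 genes above background. Hydrolases and soluble proteins (median 0.67) and other lysosomal genes (median 0.64) lie to the right of 0, the genes of autophagy initiation and conjugation (median -0.00) and the other autophagy genes (0.07) lie around 0, and the 3 ATG8 genes (0.45) lie to the right.

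Within the controls, replicate 2 was set against replicates 1 and 3. It was the lowest control for 23 of the 32 genes, against 71.3% of the 10885 genes above background, and it lay below the mean of control replicates 1 and 3 for 78.3% of those genes. All 6 initiation and conjugation genes, all 3 ATG8 genes, all 3 MiT/TFE factors and Sqstm1 lay below that mean. Of the 10 soluble lysosomal proteins 6 lay above it, against 21.7% of genes above background, with Gusb 0.50, Lipa 0.45 and Grn 0.42 above it, and the median was 0.01. After quantile normalization all 10 lay above it, by a median of 0.49, and 1 of 6 initiation and conjugation genes did, against 40.0% of genes above background. Before that normalization, 1 of 38 other autophagy genes and 13 of 37 other lysosomal genes lay above that mean. Across the 32 genes the deviation of control replicate 2 within its group and that of LPS replicate 3 within its group had a Pearson r of 0.38, and the 10885 genes above background had 0.37. After quantile normalization these were 0.51 and 0.39. These r are across genes of the same 6 arrays, which share their normalization, and genes are not independent replicates.

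**Figure D5:**
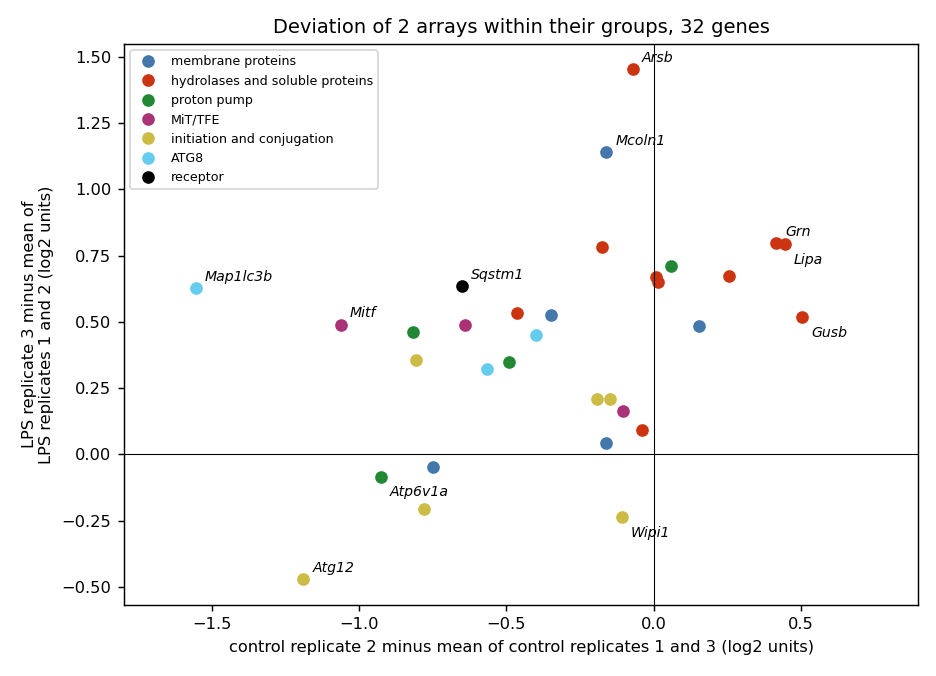
For each of the 32 genes, control replicate 2 minus the mean of the other controls (x axis, log2 units) against LPS replicate 3 minus the mean of the other LPS arrays (y axis, log2 units), coloured by role. Soluble lysosomal proteins (red) lie above 0 on the y axis and from -0.46 to 0.50 on the x axis, and autophagy genes such as Atg12 and Map1lc3b lie far to the left.

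Among the other genes of the pathway, 0 of 115 were called in either direction, and 11 were higher and 1 lower at an unadjusted p under 0.05 (9.57% and 0.87%, against 4.98% and 1.4% of all rows, and 10.1% and 1.43% of the 10885 genes above background). Without control replicate 2, 7 were higher and 12 lower. In that fit the median log2 fold change of genes above background moved from 0.12 to 0.00, and rows called lower from 0 to 14. The share of all rows at this unadjusted p in that fit is not given here. The counts are therefore not read as a result about the pathway. With all arrays, the other lysosomal genes numbered 4 higher and 1 lower of 37. Their median log2 fold change was -0.02, or -0.21 without LPS replicate 3. Acp5, the tartrate-resistant acid phosphatase of osteoclasts and activated macrophages, was at 3.41, 3.49 and 2.85 in the controls and 5.41, 5.52 and 6.79 after LPS. All LPS arrays were well above all controls, and Acp5 had a log2 fold change of 2.66 (SE 0.39; by limma, adjusted p = 0.10), from a control mean of 3.25 near the background guide. It was called higher in 5 of the 16 other fits, among them those over 1 row per gene (adjusted p = 0.031) and without both control replicate 2 and LPS replicate 3 (adjusted p = 0.029). Those 5 fits called 109 to 152 rows higher over the whole table, some of them out of fewer rows, against 80 in the main fit. Clcn7, the lysosomal chloride-proton exchanger, had 1.05 and the acid phosphatase Acp2 0.93, which were 0.62 and 0.53 without LPS replicate 3. The 1 gene lower, named after its value was seen, was Laptm5, a lysosomal membrane protein of blood cells, at -0.57.

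Of 19 other proton pump genes 1 was higher, Tcirg1, the a3 subunit of the membrane sector used in osteoclasts and macrophages, at 0.57 (SE 0.23; by limma, adjusted p = 0.76), or 0.33 without LPS replicate 3. Atp6v0d2, the d subunit isoform of osteoclasts and macrophages, falls outside the naming rule and was chosen once its values were known. It was at 8.85, 8.05 and 8.80 in the controls and 6.26, 6.51 and 8.64 after LPS, so LPS replicates 1 and 2 lay far below the controls and LPS replicate 3 within their range. Its log2 fold change over all arrays was -1.43 (SE 0.63 and adjusted p = 0.82 by limma), or -2.18 without LPS replicate 3 (not called). Without both control replicate 2 and LPS replicate 3 it was -2.44 (by limma, adjusted p = 0.013), in a fit that called 67 rows lower. The 2 arrays left out were already seen to deviate, and in this gene both narrow the difference. The call is therefore not read as a result.

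Of 38 other autophagy genes 5 were higher and 0 lower at the same unadjusted p, with a median log2 fold change of 0.17. Control replicate 2 was the lowest control for 37 of the 38, and without it 3 were higher and 7 lower, with a median of -0.01. The genes above background had a median of 0.00 without it, and the share of all rows at this p there is not given. These counts are therefore not read as a result about autophagy genes. After quantile normalization the median of the 38 was also -0.01. Tbk1, a kinase that phosphorylates autophagy receptors as well as the interferon factor IRF3, was at 7.38, 7.02 and 7.42 in the controls and 8.0, 8.13 and 8.12 after LPS. The LPS arrays were close together and above all controls, and Tbk1 had a log2 fold change of 0.81 (SE 0.16; by limma, adjusted p = 0.23). Vmp1, a membrane protein needed to form autophagosomes, had 0.82, and the ATG8-processing protease Atg4a 0.72, or 0.47 without control replicate 2. Of 21 genes of nutrient sensing and TFEB control 1 was higher, Tfec, the MiT/TFE member restricted largely to macrophages. Tfec was at 5.51, 5.34 and 5.69 in the controls and 6.32, 6.49 and 6.97 after LPS, a log2 fold change of 1.08 (SE 0.21; by limma, adjusted p = 0.23), with no overlap between groups.

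The 7 genes with a CACGTG match among the 28 with both a window and a row had a median log2 fold change of 0.31, and the 21 without had 0.09. Without control replicate 2 these medians were 0.04 and 0.09, and after quantile normalization 0.12 and -0.01, so their order turned with 1 array. Their medians of LPS replicate 3 over the other LPS arrays were 0.46 and 0.52. The ranges of the log2 fold changes overlapped, from -0.02 to 0.37 with a match and from -1.06 to 1.51 without. The share of genes with the match was similar in the wider pathway lists, 23 of 100 with a window (23.0%).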

How the data were processed

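The authors deposited 1 log2 expression value for each transcript cluster and array. The submitters' processing notes name Affymetrix Expression Console. Its version, background correction, normalization and summarization are not given in the sources used here, and the log2 scale was read from the values. Rows were named from platform annotation: 23521 of 41345 had 1 symbol, 1814 several and 16010 none, and rows with several named nothing. LPS was compared with control by lmFit and eBayes (no trend) of limma 3.58.1, run in R 4.3.3, on 3 arrays per group, without further normalization or filter. The number of arrays limits the precision. The fit was tested on simulated data with independent noise in each row and no array-wide deviations. That simulation does not bear on the deviations of control replicate 2 and LPS replicate 3. Of the wider pathway lists, 115 of 123 genes had a row. Members and lists were chosen with earlier results of these data known. Every member was named. Values by array were required for genes at an unadjusted p under 0.05, genes without overlap, and the largest difference up and down per role. Lipa, Grn, Psap and Mcoln1 were added with their values known. Of the wider lists, up to 3 genes at an unadjusted p under 0.05 were named. Genes above background had a mean log2 value of at least 3.09. Promoter sequences are RefSeq's (GRCm38.p6). No coordinates are given for rows, since no build was named for the array. Alternatives are in the closing section.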

Additional observations from a re-analysis of the deposited data

How the results depend on the processing

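No member was called higher in any of the 16 alternative fits. Members called lower numbered 0 to 1 with 1 array left out, and 1 without both control replicate 2 and LPS replicate 3, the gene being Arsb each time. The members' median log2 fold change ran from 0.01 to 0.22 with 1 array left out, and was -0.07 with both arrays left out. Rows called higher, 80 of all rows, were 132 with array weights, 15 to 76 with 1 array left out, and 152 with both left out. Rows called lower were 0 to 14 with 1 array left out and 67 with both left out. The median difference of LPS replicate 3 from the other LPS arrays, 0.49, ranged from 0.35 (without LPS replicate 1) to 0.59. Quantile normalization moved the median log2 fold change of genes above background from 0.12 to -0.02. Differences near 0 changed sign. Tfe3 was -0.046 after quantile normalization, -0.029 with array weights and -0.26 with both arrays left out, where Gabarapl1 was -0.044. With 1 array left out the ranges were -0.19 to 0.12 for Lamp1, -0.31 to 0.12 for Atp6ap1, -0.094 to 0.27 for Tfe3, -0.39 to 0.18 for Mitf and -0.17 to 0.088 for Wipi1. Of the 32 members, 17 changed sign in at least 1 of the fits with 1 array left out, 11 of them without LPS replicate 3, and 6 changed sign after quantile normalization. The cause was not tested. With the replicate number as a block 7 rows were called higher and 0 members. Same-numbered arrays had correlations of their deviations from the group means of 0.07, -0.26 and -0.22. The pair of control replicate 2 and LPS replicate 3 had 0.27, and that of control replicate 3 and LPS replicate 2 had 0.25. Deviations within a group of 3 arrays sum to 0, so these values depend on one another. They cannot show whether same-numbered arrays share a culture or batch.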

Other observations

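The course of Arsb, on its brighter row, and Atp6v0d2 over the arrays, with LPS replicates 1 and 2 far below the controls and LPS replicate 3 near them, was looked for in the whole table after these genes were seen. Of 22180 genes, 20 had both LPS replicates 1 and 2 more than 1 log2 unit below the lowest control. In 15 of these LPS replicate 3 was less than 0.25 below the lowest control, or above it. Arsb and Atp6v0d2 were among them, with Trem2, a lipid-sensing receptor of microglia, the integrin subunit Itgax, the chemokine receptor Cxcr4, the cell fusion gene Ocstamp and the interleukin 6 receptor Il6ra. The rule used the lowest control, which in some genes was a low control replicate 2. Ocstamp was at 8.66, 6.73 and 8.87 in the controls and 6.66 in LPS replicate 3. Cxcr4 was at 6.83, 6.11 and 6.85 against 5.99. In these 2 genes LPS replicate 3 was near control replicate 2 only. Trem2 was at 8.45, 8.50 and 8.34 in the controls and 7.16, 7.19 and 8.75 after LPS. Itgax was at 6.76, 6.62 and 6.81 in the controls and 4.12, 5.10 and 7.07 after LPS. In both genes LPS replicate 3 was the highest of the 6 arrays. These genes were chosen by the same values that are given, so there is no test.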
